A study of Mus musculus with 15 samples.

Results

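The transcripts of 10 genes of the piRNA pathway were followed through mouse embryonic stem cells (mESCs) and the embryoid bodies (EBs) made from them. The genes are Piwil2, Fkbp6, Mov10l1, Mael, Tdrd1, Tdrd9, Tdrd12, Asz1, Pld6 and Gtsf1. They were picked by name as known factors of piRNA production and found by symbol among the 55471 gene IDs of each library. The choice was made with earlier results of these data known, so counts and medians of this set are no independent test. Poly(A) RNA was sequenced in 15 libraries that form 5 groups of 3. NSD1-dTAG EBs were differentiated for 6 days with 500 nM dTAG-13 present, and a second group of NSD1-dTAG EBs was differentiated for 6 days without it. NSD1-dTAG mESCs, the nontreated cells of the same knock-in line, formed the third group. Wild-type mESCs given 500 nM dTAG-13 for 72 h and nontreated wild-type mESCs formed the other two. All cells derive from E14, an mESC line kept in 2i/LIF medium, and the EBs grew in suspension in serum medium. NSD1 is a histone methyltransferase that places H3K36me2. The knock-in puts a degron tag on it, and dTAG-13 is a degrader that brings the tagged protein to an E3 ubiquitin ligase. The labels do not say whether the knock-in line is 1 clone. Wild-type EBs and NSD1-dTAG mESCs given dTAG-13 were not analysed here.

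In the mouse germ line, PIWI proteins carry short RNAs called piRNAs to the transcripts of transposons, which are cut, and to transposon genes in the nucleus, which become DNA-methylated. The machinery gathers in granules next to mitochondria, where long precursors are unwound, cut, trimmed and handed from one PIWI protein to another. Most of its genes have CpG-rich promoters and are known to be held silent in somatic cells by DNA methylation and, in mESCs, also by a repressive complex, PRC1.6, whose subunits MGA and MAX bind the E-box letters CACGTG. The PWWP domain of the DNA methyltransferase DNMT3A is known to bind H3K36me2, the mark that NSD1 makes.

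Library depth ran from 18704591 to 29103958 counts on genes. The Nsd1 transcript averaged 288 ± 51.9 CPM (gene counts scaled to a common library total; SD, n = 3) in dTAG-13 EBs and 238 ± 26.5 CPM in nontreated EBs, and it averaged 283 ± 104 CPM in NSD1-dTAG mESCs and 364 ± 47.7 CPM in nontreated wild-type mESCs, with an adjusted p from edgeR of 0.351 and 0.723 for those pairs. dTAG-13 acts on the protein, so these levels do not test the degradation. The cells followed their labels: against NSD1-dTAG mESCs, nontreated EBs had all 8 markers of day 6 EBs higher and all 7 mESC markers lower. The EB libraries held 0 ERCC spike-in counts and in the mESC libraries these made up 0.292% to 0.496%, so differentiation and this difference in handling cannot be told apart. In each group 1 library stood apart with the highest share of ribosomal protein counts and the shortest read-weighted exon length: dTAG-13 EB 3, nontreated EB 3, NSD1-dTAG mESC 1, dTAG-13 wild-type mESC 3 and nontreated wild-type mESC 1. The labels number the libraries of a group as biological replicates without saying what was kept apart, so a p-value here speaks of the spread among these libraries, which may be technical.

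Levels per exon length, in CPM per kb of annotated exons, placed the 10 genes far apart. Tdrd12, a Tudor protein with a helicase-like region that works in the later rounds of piRNA production, was the most abundant member in NSD1-dTAG mESCs, at 5.92 ± 0.468 CPM per kb (SD, n = 3), and in nontreated wild-type mESCs, at 6.58 ± 0.600 CPM per kb. Mael, an HMG-box protein of the granules, reached 9.01 ± 1.73 CPM per kb in dTAG-13 EBs and 6.47 ± 1.48 CPM per kb in nontreated EBs, near Tdrd12, at 7.25 ± 1.61 and 9.69 ± 0.326 CPM per kb in the same groups. Pld6, a nuclease on the mitochondrial surface that cuts piRNA precursors and also acts on mitochondrial lipid, lay between 2.22 and 3.46 CPM per kb in every group mean. At the other end, Tdrd9, a helicase with a Tudor domain, stayed at or below 0.0654 CPM per kb in every group mean. Asz1, a scaffold of the granules on the mitochondrial surface, had a mean of at most 0.0659 CPM per kb.

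**Figure D1:**
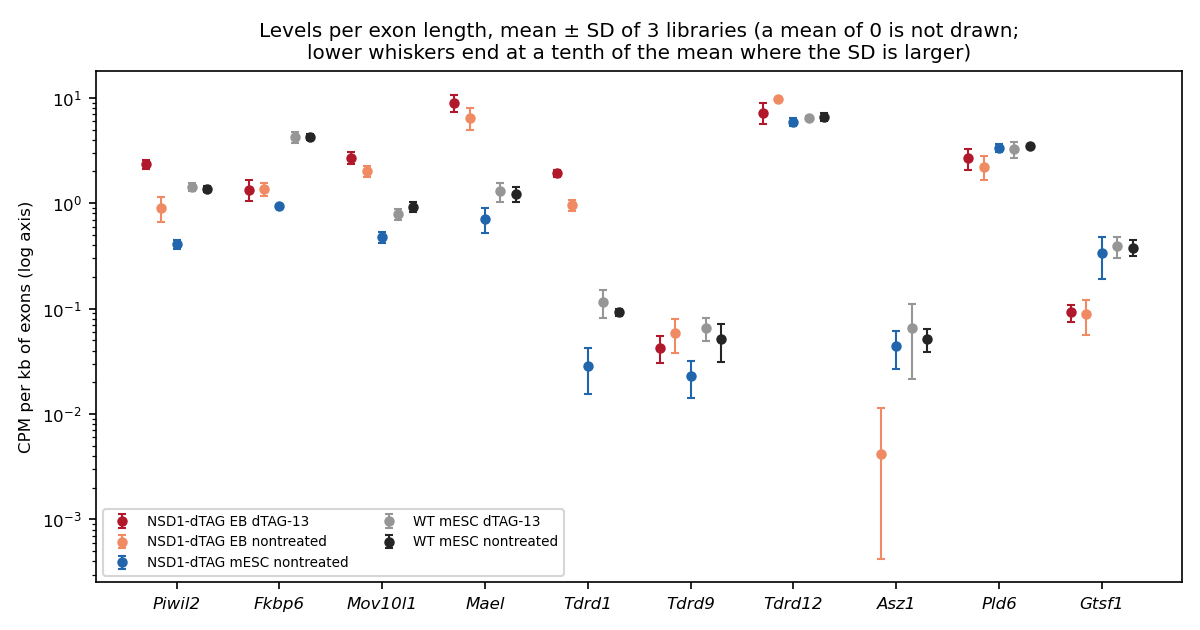
Mean level of each piRNA pathway gene per kb of annotated exons (vertical log axis, CPM per kb; whiskers, SD of 3 libraries) in dTAG-13 EBs, nontreated EBs, NSD1-dTAG mESCs, dTAG-13 wild-type mESCs and nontreated wild-type mESCs, left to right for each gene. Tdrd12, at 5.92 to 9.69 CPM per kb, is near the top in every group, while Tdrd9 and Asz1 lie below 0.1, and the dTAG-13 EB point of Asz1 is missing because its mean is 0.

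The least abundant members were close to the detection limit. Asz1 had 0, 0 and 0 counts in dTAG-13 EBs, which allows a level of up to 0.0383 CPM over the group (3 counts), and 0, 1 and 0 counts in nontreated EBs. The mESC libraries held between 1 and 7 counts of it. Tdrd9 had between 2 and 12 counts in each of the 15 libraries, with no group free of it. Gtsf1, a small zinc-finger protein that helps PIWI proteins cut their targets, had 3, 3 and 4 counts in dTAG-13 EBs and 4, 2 and 4 in nontreated EBs, against 20, 12 and 7 in NSD1-dTAG mESCs. Gtsf1 was therefore lower in each nontreated EB library than in each NSD1-dTAG mESC library, but its counts did not pass the filter on low values in the 6-library fits of the EB comparisons. For nontreated EBs over NSD1-dTAG mESCs it was called lower by DESeq2, by edgeR with no filter, with all 15 libraries in 1 fit, and when NSD1-dTAG mESC 3 or any 1 nontreated EB library was left out. In the fit of 15 and with 1 library left out, Gtsf1 passed the filter through mESC libraries, where it was higher. The calls of those settings are therefore no independent support. Asz1 and Tdrd9 passed that filter in no comparison between groups; with no filter, edgeR called Asz1 lower in nontreated EBs than in NSD1-dTAG mESCs. In bulk RNA, fewer cells that transcribe a gene and less of its RNA in each cell cannot be told apart, for these and for all other members.

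**Figure D2:**
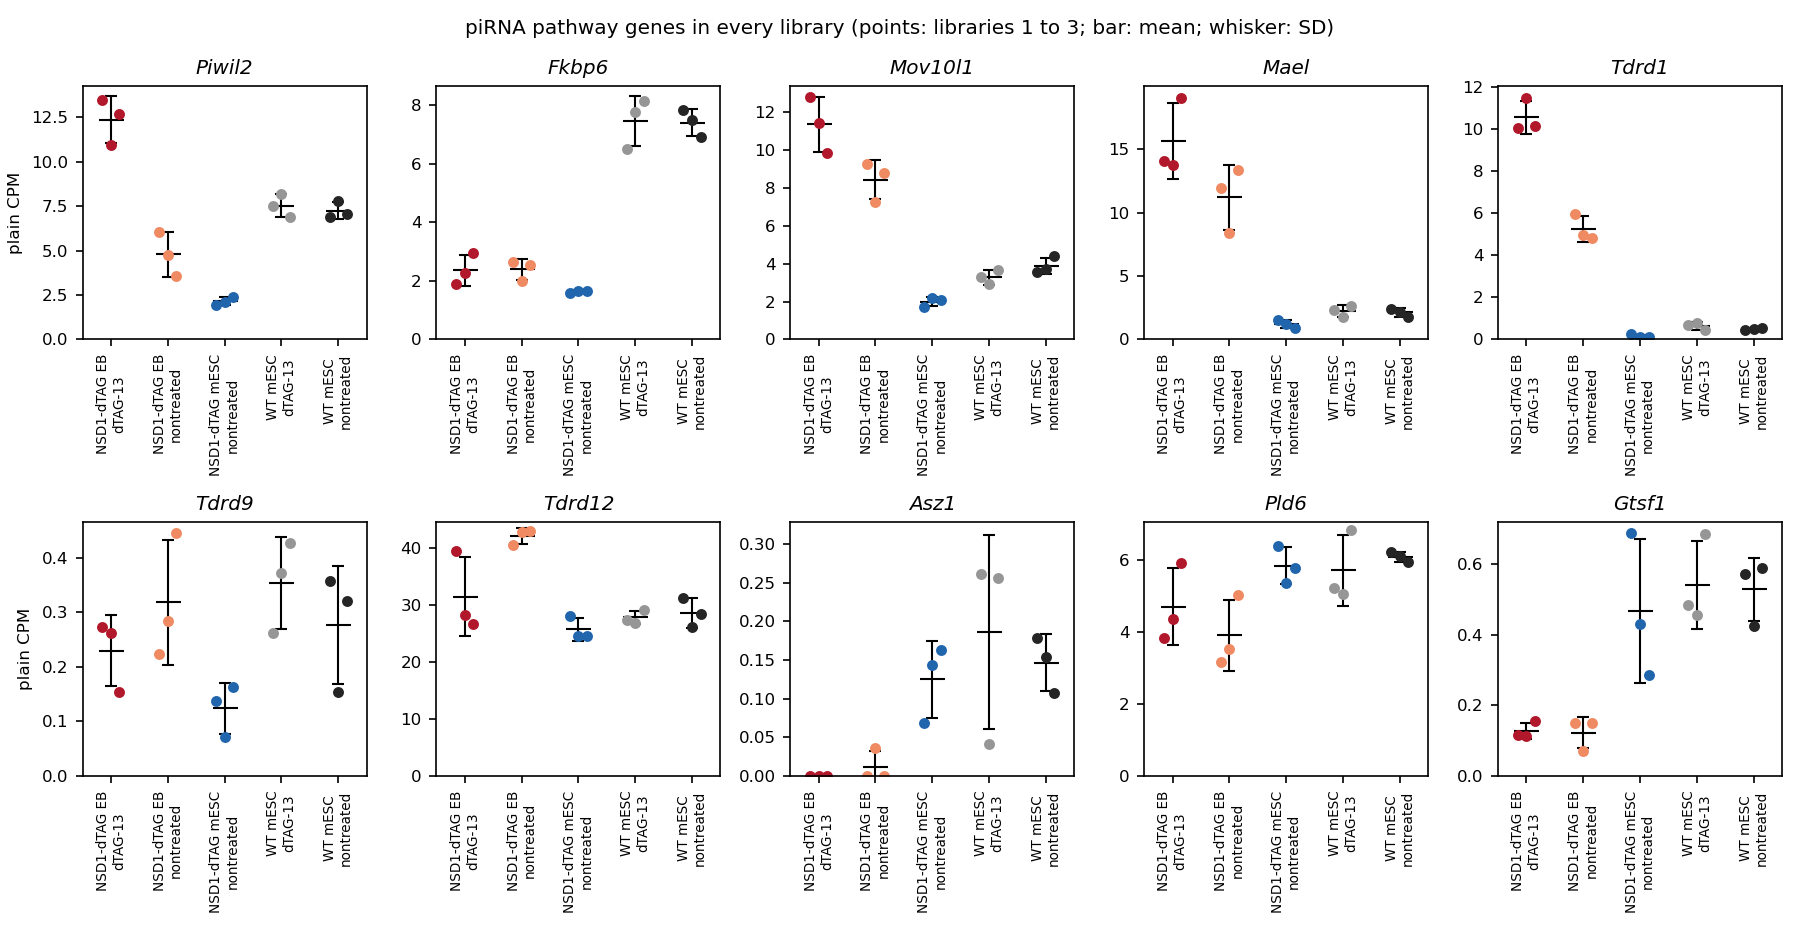
Plain CPM of the 10 piRNA pathway genes in every library, with 1 panel for each gene and its own vertical scale from 0; points are libraries 1 to 3 of a group, the horizontal bar is the mean and the whisker the SD. Piwil2 and Tdrd1 are highest in dTAG-13 EBs (10.9 to 13.5 CPM and 10.05 to 11.5 CPM), whereas the highest 6 values of Fkbp6 all belong to wild-type mESCs.

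The promoters are shown because most of those found hold the E-box letters that MGA and MAX bind. RefSeq windows on GRCm38.p6 were found for 9 of the 10 genes, Piwil2 being the exception, and the 250 bases before the annotated start nearest to the GENCODE M21 start were read. CACGTG, which reads the same on both strands, occurred in 6 of these 9 windows (66.7%), those of Fkbp6, Mov10l1, Mael, Tdrd1, Tdrd9 and Pld6. Among all 32851 RefSeq windows of that length 6.02% held it, and among the 18260 windows with at least 5 CpG, the fewest of any member, 8.58% held it. The 6 member windows with CACGTG held 8 to 19 CpG, so these shares are not matched to them in CpG content. They also count every window of a gene, where each member gave 1. Fkbp6 and Tdrd9 had 2 copies each. The E2F letters GGCGGGA, searched on both strands, occurred in the Mael window alone of the 9, which is 11.1% of them, against 9.75% of all windows and 16.7% of those with at least 5 CpG, and shared no base with the E-box there. Windows of Tdrd12, Asz1 and Gtsf1 held neither motif. A match describes the letters and is not a binding site measured here. The sequences below are given 5′ to 3′ on the gene's strand with CACGTG in capitals. They belong to Pld6, Fkbp6, Mov10l1, Mael and Tdrd1. Not printed are the windows of Tdrd9, with 2 copies, and of Tdrd12, Asz1 and Gtsf1, with none, so the printed set is a selection. Values of Pld6 in NSD1-dTAG and nontreated wild-type mESCs overlapped. The other 4 printed members were lower in NSD1-dTAG mESCs without overlap, whether called or not. The share of all genes without such overlap was not counted, and 14.1% of genes tested there had an unadjusted p below 0.05 in edgeR. A link between motif and level was not tested. Bases that lie inside the M21 gene were removed, which shortens the Mov10l1 run to 165 bases and the Mael run to 247.
Fkbp6 (chr5:135350045-135350294, minus strand): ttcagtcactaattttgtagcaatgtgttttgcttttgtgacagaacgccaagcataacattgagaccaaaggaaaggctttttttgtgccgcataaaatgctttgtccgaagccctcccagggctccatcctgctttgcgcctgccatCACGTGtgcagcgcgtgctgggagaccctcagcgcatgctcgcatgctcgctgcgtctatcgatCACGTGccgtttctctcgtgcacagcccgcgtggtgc
Mov10l1 (chr15:88982744-88982908, plus strand): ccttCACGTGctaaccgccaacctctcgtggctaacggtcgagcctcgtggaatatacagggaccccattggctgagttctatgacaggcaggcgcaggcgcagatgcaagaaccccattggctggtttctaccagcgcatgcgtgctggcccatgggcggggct
Mael (chr1:166238748-166238994, minus strand): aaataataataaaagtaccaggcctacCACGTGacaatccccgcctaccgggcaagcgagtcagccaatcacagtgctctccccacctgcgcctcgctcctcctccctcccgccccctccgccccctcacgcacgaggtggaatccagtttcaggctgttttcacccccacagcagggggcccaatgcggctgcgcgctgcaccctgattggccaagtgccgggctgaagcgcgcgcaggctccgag
Tdrd1 (chr19:56825959-56826208, plus strand): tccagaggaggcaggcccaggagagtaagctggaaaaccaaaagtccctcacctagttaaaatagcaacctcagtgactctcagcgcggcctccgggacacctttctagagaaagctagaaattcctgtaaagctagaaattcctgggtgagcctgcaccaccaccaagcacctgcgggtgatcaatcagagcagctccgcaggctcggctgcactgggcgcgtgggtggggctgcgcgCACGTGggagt
Pld6 (chr11:59787658-59787907, minus strand): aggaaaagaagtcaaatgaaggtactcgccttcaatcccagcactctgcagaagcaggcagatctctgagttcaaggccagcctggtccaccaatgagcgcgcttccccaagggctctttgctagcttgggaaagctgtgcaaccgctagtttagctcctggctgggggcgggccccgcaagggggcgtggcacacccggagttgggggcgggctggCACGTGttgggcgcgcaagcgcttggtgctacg
The first base of the E-box lay 101 and 37 bases before the RefSeq start in Fkbp6, 246 in Mov10l1, 223 in Mael, 11 in Tdrd1 and 33 in Pld6.

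The first comparison asks which members changed when dTAG-13 was present during EB differentiation of the NSD1-dTAG line. Piwil2 and Tdrd1 rose and no member was called lower. Of the 10 genes, 7 passed the filter on low counts, and 2 of those 7 were called higher at an adjusted p below 0.05 in edgeR's quasi-likelihood test, where 6.76% of all 15236 genes tested were called (3.98% higher, 2.78% lower). The median log2 fold change of the 7 was 0.41, against -0.0056 over all genes tested. Piwil2 is the PIWI protein MILI, which binds piRNAs and cuts transposon transcripts. It had 13.5, 10.9 and 12.7 CPM in dTAG-13 EBs, against 6.08, 4.74 and 3.57 CPM in nontreated EBs. Every dTAG-13 EB library was above every nontreated one. The log2 fold change was 1.35 ± 0.200 (SE), which is 2.55-fold, with an adjusted p of 0.0118 from edgeR. Tdrd1, a protein of several Tudor domains that docks on methylated arginines of PIWIL2, had 10.05, 11.5 and 10.1 CPM in dTAG-13 EBs, against 5.96, 4.95 and 4.79 CPM in nontreated EBs. These groups did not overlap either, and the log2 fold change was 0.99 ± 0.147 (SE; adjusted p = 0.0118, edgeR), or 1.99-fold.

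The other 5 tested members did not pass the threshold in these EBs. Mov10l1, the RNA helicase that binds piRNA precursors, had 12.8, 11.4 and 9.85 CPM in dTAG-13 EBs, against 9.25, 7.26 and 8.77 CPM in nontreated EBs. The groups did not overlap, and the log2 fold change of 0.41 ± 0.157 (SE) had an adjusted p of 0.176 from edgeR. Mael had 14.04, 13.7 and 19.08 CPM in dTAG-13 EBs, against 11.9, 8.37 and 13.3 CPM in nontreated EBs (log2 fold change 0.46, adjusted p = 0.266, edgeR). Its highest value came from dTAG-13 EB 3, a library that stood apart. Tdrd12 had 39.5, 28.1 and 26.7 CPM in dTAG-13 EBs, against 40.4, 42.7 and 43.0 CPM in nontreated EBs (log2 fold change -0.44, adjusted p = 0.127, edgeR). All values of Tdrd12 in dTAG-13 EBs were below all those in nontreated EBs, the opposite order to Mov10l1. Fkbp6, a cochaperone of HSP90 needed for loading PIWI proteins, had 1.88, 2.28 and 2.93 CPM in dTAG-13 EBs, against 2.65, 1.99 and 2.53 CPM in nontreated EBs (log2 fold change -0.035). Pld6 had 3.83, 4.37 and 5.91 CPM in dTAG-13 EBs, against 3.17, 3.52 and 5.02 CPM in nontreated EBs (log2 fold change 0.25). For both genes the groups overlapped. The calls of Piwil2 and Tdrd1 ended when dTAG-13 EB 1 was left out (adjusted p = 0.0558 and 0.0510, edgeR) or nontreated EB 2 (adjusted p = 0.0574 and 0.0597, edgeR), with log2 fold changes between 0.94 and 1.33. Without the libraries that stood apart Mov10l1 was also called (log2 fold change 0.54, adjusted p = 0.0462, edgeR), and with all 15 libraries in 1 fit Tdrd12 was called lower (log2 fold change -0.44, adjusted p = 0.0414, edgeR). Over all genes, these settings called 3233 of 15463 and 1931 of 16024, against 1030 of 15236 in the main fit.

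The wild-type mESCs given dTAG-13 were compared with nontreated ones where no degron tag was present, in the mESC state and after 72 h. They do not show what the compound does in untagged EBs. No member passed the threshold. Of 8 members tested, 0 were called by edgeR, 0 by DESeq2 and 0 had an unadjusted p below 0.05 in edgeR, and of all 13784 genes tested 0% were called by edgeR, with 229 genes at an unadjusted p below 0.05. Piwil2 had 7.50, 8.20 and 6.89 CPM in dTAG-13 wild-type mESCs, against 6.90, 7.80 and 7.06 CPM in nontreated wild-type mESCs. These ranges overlapped, and the log2 fold change was 0.048 ± 0.104 (SE). The 8 log2 fold changes ran from -0.23 for Mov10l1 to 0.34 for Tdrd1, with a median of 0.014. Without the libraries that stood apart 893 genes had an unadjusted p below 0.05 in edgeR. That setting called 16 of 13861 genes and 0 members, so the main fit may miss small effects.

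The interaction tested whether the dTAG-13 effect in NSD1-dTAG EBs differed from that in wild-type mESCs, groups that differ in line, cell state and treatment time as well as in the tag. The effect on Piwil2 was larger in NSD1-dTAG EBs than in wild-type mESCs, by a log2 difference of 1.29 ± 0.233 (SE; adjusted p = 0.0117, edgeR). Piwil2 was the single call among 8 members tested, where 2.88% of 15855 genes were called (1.6% higher, 1.27% lower). It stayed called in each of the other 17 settings run, at log2 differences between 1.08 and 1.495. Tdrd1 had a difference of 0.65 (adjusted p = 0.350, edgeR) and Mov10l1 of 0.64 (adjusted p = 0.164, edgeR). The rise of Tdrd1 in EBs was thus not shown to differ from its value of 0.34 in wild-type mESCs. Without the libraries that stood apart Mov10l1 was called as well (0.90, adjusted p = 0.0298, edgeR), and without dTAG-13 EB 1 Tdrd12 was called (-0.59, adjusted p = 0.0439, edgeR). Over all genes, these settings called 1897 of 15990 and 260 of 16233.

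**Figure D3:**
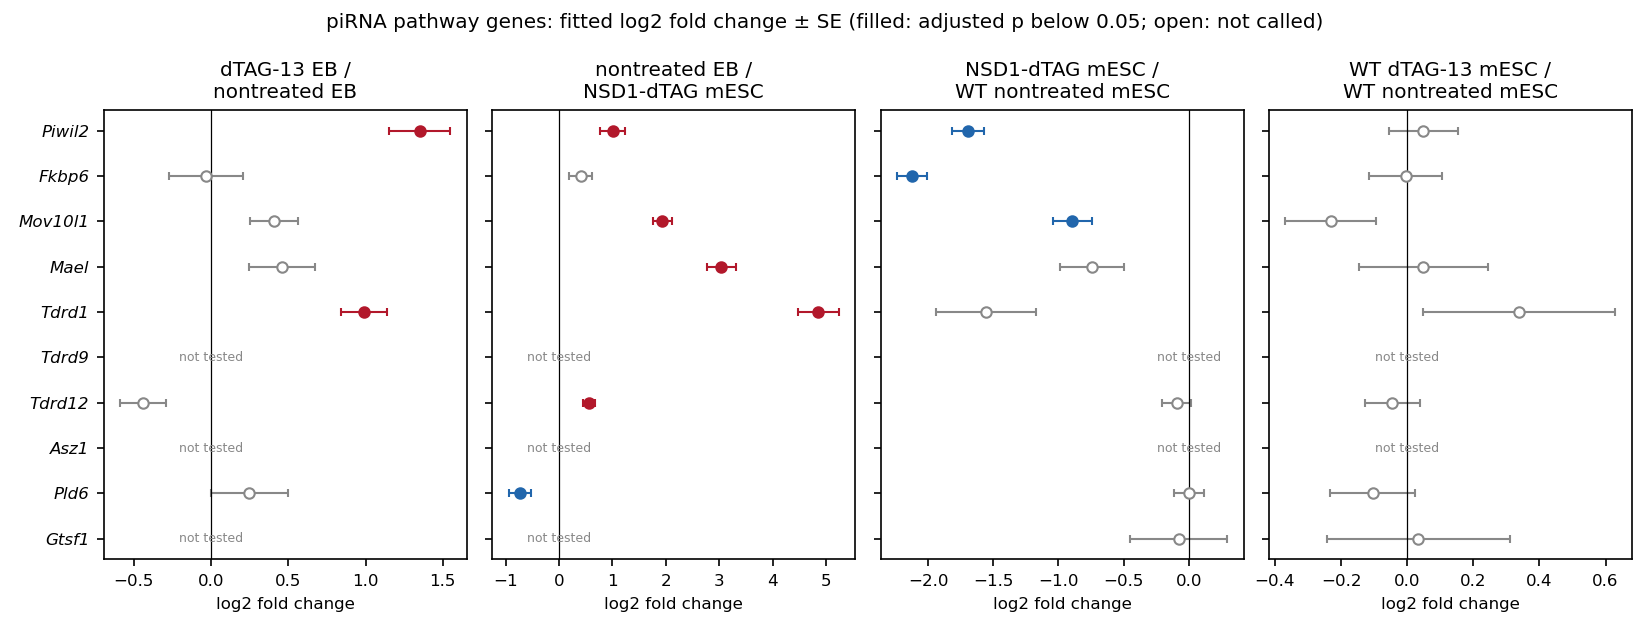
Fitted log2 fold change ± SE of the 10 genes (rows) in the 4 comparisons (panels, each with its own horizontal scale); red filled points were called higher, blue filled points were called lower at an adjusted p below 0.05, and open grey points were not called. Piwil2 and Tdrd1 are the filled points for dTAG-13 EBs over nontreated EBs (1.35 and 0.99), and Fkbp6, Piwil2 and Mov10l1 are filled on the lower side for NSD1-dTAG mESCs over wild-type mESCs (-2.12, -1.69 and -0.89).

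The NSD1-dTAG line had not met dTAG-13 in the mESC state, and its comparison with wild-type mESCs gives the difference between the lines. Fkbp6, Piwil2 and Mov10l1 fell in NSD1-dTAG mESCs and no member was called higher. Of 8 members tested 3 were called, where 1.86% of 13895 genes were called (0.547% higher, 1.32% lower). The median log2 fold change of the 8 was -0.82, against 0.012 over all genes tested. Of the 8, Tdrd1 passed the filter on low counts through the wild-type libraries, where it was higher. Fkbp6 had 1.58, 1.65 and 1.67 CPM in NSD1-dTAG mESCs, against 7.83, 7.49 and 6.90 CPM in nontreated wild-type mESCs. All NSD1-dTAG values lay far below all wild-type ones. The log2 fold change was -2.12 ± 0.115 (SE; adjusted p = 0.00259, edgeR), which is 4.35-fold lower. Piwil2 had 1.96, 2.12 and 2.40 CPM in NSD1-dTAG mESCs, against 6.90, 7.80 and 7.06 CPM in nontreated wild-type mESCs. Again no value of one group reached the other, and the log2 fold change was -1.69 ± 0.122 (SE; adjusted p = 0.00844, edgeR), or 3.23-fold lower. Mov10l1 had 1.72, 2.19 and 2.08 CPM in NSD1-dTAG mESCs, against 3.54, 3.71 and 4.38 CPM in nontreated wild-type mESCs. Its groups did not overlap, with a log2 fold change of -0.89 ± 0.149 (SE; adjusted p = 0.0397, edgeR).

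Mael and Tdrd1 were on the same side without passing the threshold. Mael had 1.55, 1.22 and 0.896 CPM in NSD1-dTAG mESCs, against 2.43, 2.2 and 1.76 CPM in nontreated wild-type mESCs (log2 fold change -0.74 ± 0.242 SE, adjusted p = 0.208, edgeR). Tdrd1 had 7, 3 and 3 counts in NSD1-dTAG mESCs, against 13, 13 and 10 counts in nontreated wild-type mESCs (log2 fold change -1.55 ± 0.384 SE, adjusted p = 0.0921, edgeR). In neither gene did the groups overlap, but few reads stood behind Tdrd1. Tdrd12 had 28.0, 24.4 and 24.6 CPM in NSD1-dTAG mESCs, against 31.2, 26.1 and 28.3 CPM in nontreated wild-type mESCs (log2 fold change -0.092), and Pld6 had 6.39, 5.36 and 5.78 CPM, against 6.22, 6.10 and 5.93 CPM (log2 fold change 0.00039). Both overlapped between the groups, as did Gtsf1 (log2 fold change -0.078). Fkbp6 stayed called, at -2.24 to -2.08, in 12 of 14 other settings; its calls ended with scaling to the ERCC counts (adjusted p = 0.102, edgeR) and without NSD1-dTAG mESC 2 (adjusted p = 0.05003, edgeR), settings in which no member was called. Piwil2 also lost its call without any 1 of the 3 wild-type libraries (adjusted p = 0.0775 to 0.0881, edgeR), and Mov10l1 without any 1 of those or NSD1-dTAG mESC 3 (adjusted p = 0.124 to 0.183, edgeR). The dTAG-13 wild-type mESCs, which share no library with the nontreated ones, gave Fkbp6 at -2.12 (adjusted p = 0.00733, edgeR), Piwil2 at -1.74 (adjusted p = 0.0108, edgeR) and Mov10l1 at -0.66 (adjusted p = 0.117, edgeR) when they were the control. Without the libraries that stood apart 5 members were called, with Mael at -0.88 and Tdrd1 at -2.09 added. The same 5 were called without NSD1-dTAG mESC 1 alone, and Tdrd1 was also called with all 15 libraries in 1 fit (adjusted p = 0.0284, edgeR). Over all genes, these settings called 3123 of 13762, 1248 of 14035 and 500 of 16024, against 259 of 13895 in the main fit.

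Differentiation itself was followed in the NSD1-dTAG line by setting nontreated EBs against NSD1-dTAG mESCs. Tdrd1, Mael, Mov10l1, Piwil2 and Tdrd12 rose and Pld6 fell. Of 7 members tested 6 were called (6 to 8 over the other settings run), where 59.5% of 15193 genes were called (33.1% higher, 26.3% lower), and Tdrd1 passed the filter through the EB libraries. Tdrd1 had 160, 139 and 129 counts in nontreated EBs, against 7, 3 and 3 counts in NSD1-dTAG mESCs. That is 5.24 ± 0.636 CPM in nontreated EBs and 0.157 ± 0.0728 CPM in NSD1-dTAG mESCs (SD, n = 3 each), with a log2 fold change of 4.86 ± 0.380 (SE; adjusted p = 5.75e-06, edgeR). Mael had 11.9, 8.37 and 13.3 CPM in nontreated EBs, against 1.55, 1.22 and 0.896 CPM in NSD1-dTAG mESCs, an 8.21-fold difference (adjusted p = 3.36e-05, edgeR). Mov10l1 had 9.25, 7.26 and 8.77 CPM in nontreated EBs, against 1.72, 2.19 and 2.08 CPM in NSD1-dTAG mESCs, a 3.82-fold difference (adjusted p = 4.24e-05, edgeR). None of these groups overlapped.

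Piwil2 rose less, to 4.79 ± 1.26 CPM in nontreated EBs, against 2.16 ± 0.224 CPM in NSD1-dTAG mESCs (SD, n = 3 each), a log2 fold change of 1.01 ± 0.235 (SE; adjusted p = 0.00622, edgeR). Its nontreated EB mean was thus below the 7.25 ± 0.479 CPM of nontreated wild-type mESCs, a difference of line and state together that was not tested. Tdrd12 rose to 42.0 ± 1.42 CPM in nontreated EBs, against 25.7 ± 2.03 CPM in NSD1-dTAG mESCs (adjusted p = 0.00343, edgeR). Pld6 fell to 3.17, 3.52 and 5.02 CPM in nontreated EBs, against 6.39, 5.36 and 5.78 CPM in NSD1-dTAG mESCs, a log2 fold change of -0.73 ± 0.213 (SE; adjusted p = 0.0179, edgeR). The highest nontreated EB value of Pld6 again belonged to the library that stood apart, and the call ended without nontreated EB 1 (adjusted p = 0.0652, edgeR) or nontreated EB 2 (adjusted p = 0.0668, edgeR). Fkbp6 had 2.65, 1.99 and 2.53 CPM in nontreated EBs, against 1.58, 1.65 and 1.67 CPM in NSD1-dTAG mESCs. These did not overlap, and the log2 fold change of 0.40 ± 0.209 (SE) had an adjusted p of 0.130 from edgeR. Across the 5 groups Fkbp6 and Piwil2 therefore stood in different orders: Fkbp6 was at 2.36 ± 0.534 CPM in dTAG-13 EBs and 7.46 ± 0.856 CPM in dTAG-13 wild-type mESCs, and Piwil2 was at 12.4 ± 1.31 CPM in dTAG-13 EBs and 7.53 ± 0.659 CPM in dTAG-13 wild-type mESCs (SD, n = 3 each).

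The other genes of the pathway were read from a list of 22. In dTAG-13 EBs against nontreated EBs, 2 of 17 tested were higher, 1 was lower and the median log2 fold change was 0.070. Of all genes tested there, 3.98% were called higher and 2.78% lower. Ddx4, the germ-cell RNA helicase of the granules, rose to 40.0 ± 4.43 CPM in dTAG-13 EBs, against 15.8 ± 3.61 CPM in nontreated EBs (log2 fold change 1.32, adjusted p = 0.00991, edgeR). Rnf17, a Tudor protein, rose to 30.3 ± 4.77 CPM in dTAG-13 EBs, against 19.8 ± 2.17 CPM in nontreated EBs (log2 fold change 0.59, adjusted p = 0.0435, edgeR). Dnmt3l, the cofactor of de novo DNA methyltransferases in germ cells, fell to 97.4 ± 18.1 CPM in dTAG-13 EBs, against 148 ± 3.62 CPM in nontreated EBs (log2 fold change -0.62, adjusted p = 0.0340, edgeR). Without the libraries that stood apart Tdrd5 and Tex15 were called too, which made 3 higher and 2 lower. Gtsf1l was called lower by DESeq2, with the replicate block and with all 15 libraries in 1 fit. That last fit also called Pnldc1 and Prmt5, which made 3 higher and 3 lower. Calls of Rnf17 and Dnmt3l ended in 5 of 6 runs with 1 library left out, and Ddx4 kept its call in all 6. For Ddx4 the interaction was also called, at a log2 difference of 1.26 (adjusted p = 0.0140, edgeR).

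In NSD1-dTAG mESCs against nontreated wild-type mESCs 2 of 16 listed genes tested were lower, none was higher and the median log2 fold change was -0.11. Of all genes tested there, 1.32% were called lower and 0.547% higher. Gpat2, a mitochondrial acyltransferase homologue needed for piRNA production, fell to 10.1 ± 0.885 CPM in NSD1-dTAG mESCs, against 19.09 ± 1.23 CPM in nontreated wild-type mESCs (adjusted p = 0.0167, edgeR). Tdrd5, a Tudor protein that binds piRNA precursors, fell to 1.31 ± 0.177 CPM in NSD1-dTAG mESCs, against 3.23 ± 0.253 CPM in nontreated wild-type mESCs (adjusted p = 0.0183, edgeR). With the replicate block, by DESeq2 and without the libraries that stood apart 4 genes were lower, Rnf17 and Tex15 being added, and without NSD1-dTAG mESC 1 there were 5. The calls of Gpat2 and Tdrd5 ended with ERCC scaling and in 5 of 6 runs with 1 library left out. In nontreated EBs against NSD1-dTAG mESCs 7 of 17 were higher and 8 lower, where 33.1% of all genes tested were called higher and 26.3% lower. Tdrkh, a Tudor protein on the mitochondrial surface, rose to 10.9 ± 0.748 CPM in nontreated EBs, against 0.489 ± 0.129 CPM in NSD1-dTAG mESCs, and Tdrd5 rose to 28.3 ± 6.55 CPM in nontreated EBs, against 1.31 ± 0.177 CPM in NSD1-dTAG mESCs. Morc1, which silences transposons in male germ cells, fell to 28.0 ± 3.98 CPM in nontreated EBs, against 188 ± 28.8 CPM in NSD1-dTAG mESCs, and Pnldc1, the nuclease that trims piRNA 3′ ends, fell to 8.86 ± 0.628 CPM in nontreated EBs, against 23.2 ± 1.44 CPM in NSD1-dTAG mESCs. In dTAG-13 wild-type mESCs 0 of 16 were called by edgeR, and 0 had an unadjusted p below 0.05.

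**Figure D4:**
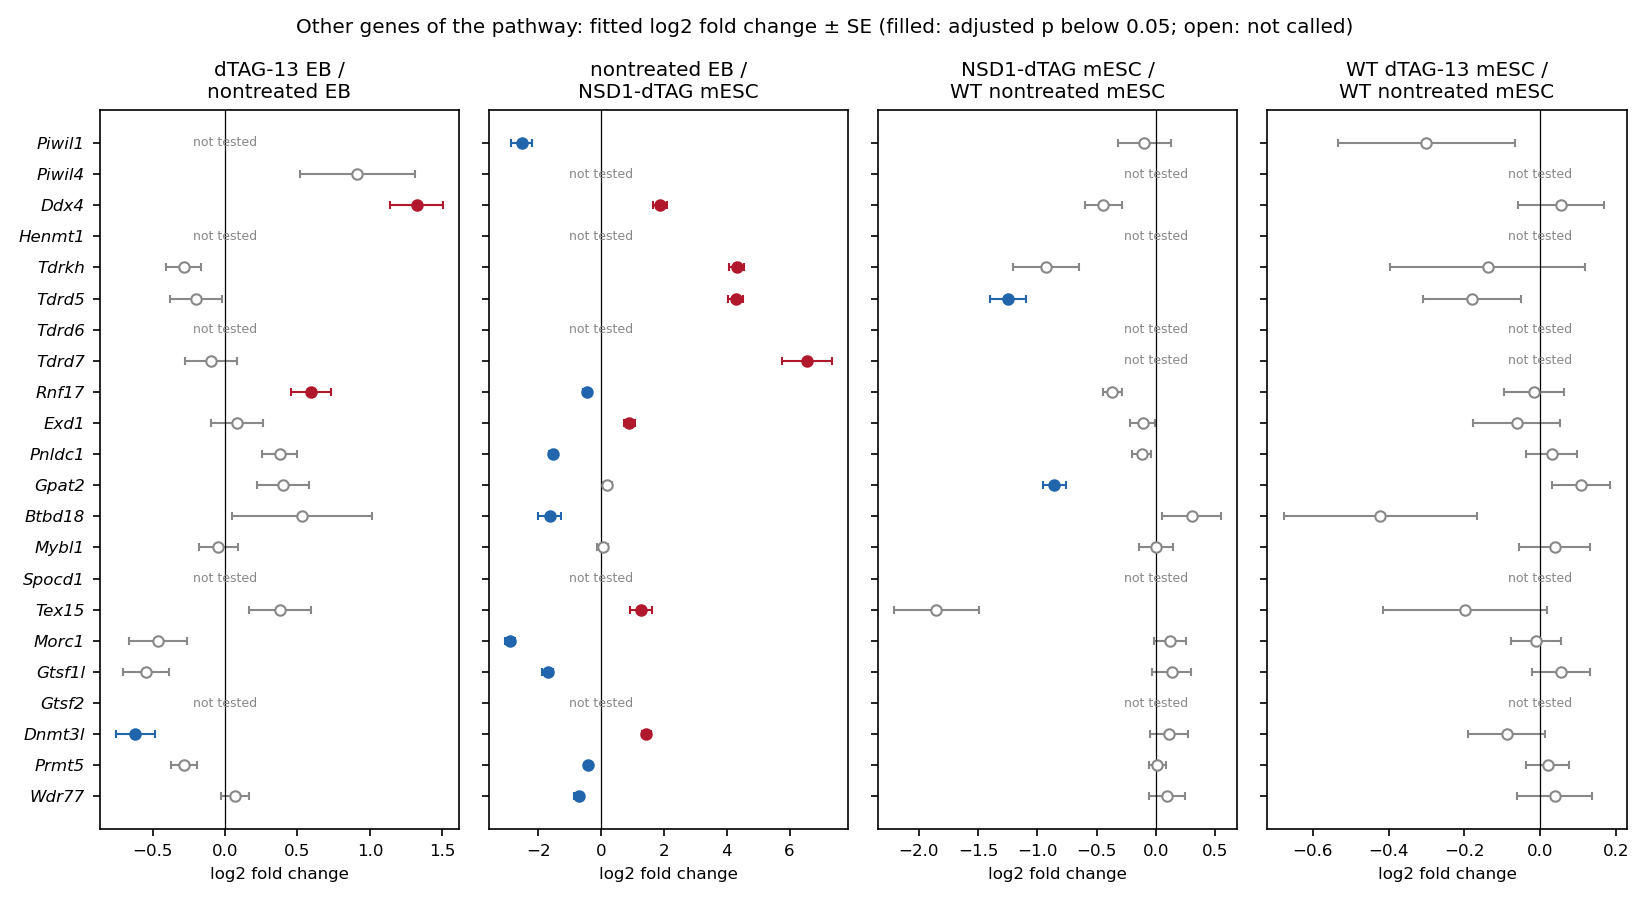
Fitted log2 fold change ± SE of 22 other genes of the pathway (rows) in the 4 comparisons (panels, each with its own horizontal scale); red filled points were called higher and blue filled points lower at an adjusted p below 0.05, and open points were not called. Ddx4 and Rnf17 are called higher and Dnmt3l lower in dTAG-13 EBs, Gpat2 and Tdrd5 are called lower in NSD1-dTAG mESCs, and the nontreated EBs show 7 calls on the higher and 8 on the lower side.

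The members were also set beside 16 other germline genes known to be sensitive to DNA methylation. This list too was chosen with earlier results of these data known, so its counts are no independent test. In dTAG-13 EBs 7 of 12 tested rose and none was called lower, with a median log2 fold change of 1.08, in the same comparison in which Piwil2 and Tdrd1 rose. Of all genes tested in that comparison, 3.98% were called higher and 2.78% lower. Taf7l, a germ-cell TFIID subunit, rose to 3.99 ± 0.630 CPM in dTAG-13 EBs, against 1.09 ± 0.221 CPM in nontreated EBs (log2 fold change 1.85, adjusted p = 0.00726, edgeR). Dazl, a germ-cell RNA-binding protein, rose to 9.23 ± 0.477 CPM in dTAG-13 EBs, against 3.92 ± 0.583 CPM in nontreated EBs (log2 fold change 1.21, adjusted p = 0.00764, edgeR). Stk31 and Sohlh2 rose by 1.08 and 1.36 on the log2 scale. With the replicate block, by DESeq2, with no filter and with all 15 libraries in 1 fit 8 were higher and Tex19.1 was lower, and Tex19.1 was also called lower without dTAG-13 EB 1 and without the libraries that stood apart. The 7 higher calls became 4, those of Taf7l, Dazl, Stk31 and Sohlh2, without dTAG-13 EB 1, nontreated EB 1 or nontreated EB 2. In NSD1-dTAG mESCs 2 of 11 fell, Sohlh2, a germ-cell transcription factor, at a log2 fold change of -0.88 (adjusted p = 0.0162, edgeR), and Dazl, at -0.996 (adjusted p = 0.0381, edgeR), and the median was -0.59. Of all genes tested in these mESCs, 1.32% were called lower and 0.547% higher. The count of lower genes was 6 of 11 with the replicate block, 5 by DESeq2, 8 without NSD1-dTAG mESC 1, and 9 with 1 higher without the libraries that stood apart, and it was 0 with ERCC scaling and in the other 5 runs with 1 library left out. Over all genes, 1248 of 14035 were called without NSD1-dTAG mESC 1 and 3123 of 13762 without the libraries that stood apart. In nontreated EBs against NSD1-dTAG mESCs 2 of 12 rose and 6 fell, with a median of -0.50. Of all genes tested there, 33.1% were called higher and 26.3% lower. The median of the 7 tested piRNA members was 1.01, but the filter on low counts shaped that set. Tdrd1 passed it through the EB libraries, while Gtsf1 and Asz1, both called lower by edgeR with no filter, did not pass. Rpl10l, Hsf2bp, Tex19.1 and Tuba3a, the 4 of the germline list with the smallest p-values, were lower in nontreated EBs, at log2 fold changes of -3.67, -0.97, -0.86 and -0.99.

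Among 16 genes of DNA methylation, PRC1.6 and the SETDB1 complex, none was called by edgeR in the fit of the 6 EB libraries, with 3 at an unadjusted p below 0.05. Tet2 was called lower in dTAG-13 EBs by DESeq2, with the replicate block and with no filter. Atf7ip was called higher without dTAG-13 EB 3, Dnmt3b higher and Tet2 lower without nontreated EB 3, and 4 genes, 3 of them higher, without the libraries that stood apart. The most abundant of the list, Trim28, a corepressor, had 1327 ± 144 CPM in dTAG-13 EBs and 1542 ± 61.3 CPM in nontreated EBs, and Dnmt3b had 1291 ± 277 CPM in dTAG-13 EBs and 882 ± 325 CPM in nontreated EBs (SD, n = 3 each). In NSD1-dTAG mESCs the single call of the list was Dnmt3a, a de novo DNA methyltransferase, at 10.2 ± 2.24 CPM in NSD1-dTAG mESCs, against 23.2 ± 2.45 CPM in nontreated wild-type mESCs (log2 fold change -1.14, adjusted p = 0.0265, edgeR). Its call ended with ERCC scaling, with dTAG-13 wild-type mESCs as the control and in 5 of 6 runs with 1 library left out. In the remaining run, without NSD1-dTAG mESC 1, Pcgf6 and Tet2 were called too, and without the libraries that stood apart 8 of the 16 genes were called, 6 higher and 2 lower. Over all genes, these settings called 1248 of 14035 and 3123 of 13762. In nontreated EBs against NSD1-dTAG mESCs 3 rose and 11 fell, where 33.1% of all genes tested were called higher and 26.3% lower. On the log2 scale Dnmt3a was at 3.60, Dnmt3b at 2.84, Tet2 at -3.11 and Uhrf1 at -1.21. The median over the list was -0.56.

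Because the members are germ-cell genes, markers of germ cells were read in the same libraries. Of 7 markers of primordial germ cells none was called in dTAG-13 EBs by edgeR, with 2 at an unadjusted p below 0.05, and their summed level ran from 142 to 209 CPM in dTAG-13 EBs and from 163 to 290 CPM in nontreated EBs. Of 6 markers of meiotic germ cells 4 were tested in dTAG-13 EBs and 2 rose, Sycp3 and Sycp1, which encode proteins of the synaptonemal complex. Their summed level, 190 to 227 CPM in dTAG-13 EBs and 56.1 to 78.9 CPM in nontreated EBs, came mostly from Sycp3, at 170 ± 21.8 CPM in dTAG-13 EBs and 42.0 ± 9.26 CPM in nontreated EBs (SD, n = 3 each). Neurog3 of 5 spermatogonial markers and Zp3 of 7 oocyte markers rose too, at 1.04 ± 0.153 and 2.66 ± 0.237 CPM in dTAG-13 EBs, against 0.208 ± 0.151 and 0.721 ± 0.167 CPM in nontreated EBs. Only 2 of the 7 oocyte markers were tested. Neurog3 passed the filter on low counts through the dTAG-13 EB libraries, where it was higher, so its call is no independent support. Of all genes tested there, 3.98% were called higher and 2.78% lower. Summed over the lists, the spermatogonial markers ran from 238 to 304 CPM in dTAG-13 EBs and from 255 to 318 CPM in nontreated EBs, and the oocyte markers from 3.24 to 3.55 CPM in dTAG-13 EBs and from 1.07 to 1.41 CPM in nontreated EBs. The spermatid markers Prm1 and Prm2 had 0 counts in every library. The EBs also differed in their other markers: 4 of 7 mESC markers and 3 of 8 day 6 EB markers fell in dTAG-13 EBs, and the part of any of these in the rise of Piwil2 and Tdrd1 was not tested. In NSD1-dTAG mESCs against nontreated wild-type mESCs, 1 of 7 primordial germ cell markers, Tfap2c, was lower and none of the mESC markers was called.

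Profiles over the 15 libraries were compared with those of 16023 genes by the root mean square difference of log2(CPM + 0.5), each profile centred on its mean, so that a smaller number is a closer match. The 3 nearest to Piwil2 were Zfy1 (0.25), Dazl (0.30) and Slc25a31 (0.37), of which Dazl and Slc25a31 are on the list of methylation-sensitive germline genes. For Fkbp6 the nearest were Atg7 (0.36), Scara5 (0.37) and Gm12690 (0.38), and for Tdrd1 they were Tbc1d9 (0.20), Cpeb1 (0.24) and Slc43a3 (0.25). Mov10l1 lay nearest to Bicdl1 (0.15), Mael to Lmo4 (0.16), Tdrd12 to Bnip3l (0.12) and Pld6 to Cryzl1 (0.11). Gtsf1, nearest to Ifrd1 (0.084), had few counts beside the pseudocount. No member was among the 3 nearest genes of another.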

How the data were processed

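The authors deposited raw, unnormalised read counts per gene, 1 table per library. Per the labels' protocols, ERCC Mix 1 was added to total RNA and libraries were poly(A)-selected and strand-specific. Per the submitters' processing notes, DESeq2 1.30.0, STAR (version not given) and bcl2fastq 2.20.0.422 were used, with builds named mm10 and GRCm38.p6. How reads were counted, on which strand and with which annotation is not given in the sources used here. GENCODE M21 (GRCm38) gave symbols and exon lengths and matched 55230 of 55471 IDs; the other 241 held at most 0.002% of a library. The listed gene Brme1 matched no ID. No member shares exon bases with another M21 gene. The 92 ERCC rows stayed out of library sizes.

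Each comparison was fitted on its own 6 libraries, and the interaction on 12, with edgeR 4.0.16 in R 4.3.3 (TMM, filterByExpr, quasi-likelihood F test, Benjamini-Hochberg over all genes tested). Fold changes are fitted log2 values with their SE; levels are plain CPM. The fitting code was tested on simulated data. Alternatives were DESeq2 1.42.0, median-of-ratios factors, no filter, a replicate block, all 15 libraries in 1 fit, ERCC scaling (mESCs only), and leaving out each library or those that stand apart. Wild-type dTAG-13 mESCs as the control were added after seeing the data. Deviations from the group means of libraries with the same number had correlations of 0.23, 0.31 and 0.38 between the EB groups. The highest with another number were 0.20, 0.084 and -0.20. Between NSD1-dTAG and nontreated wild-type mESCs they were 0.70, 0.40 and 0.40, against -0.42, 0.35 and 0.33. The same number was thus highest each time, in part by little. In both pairs of groups the libraries that stood apart also share a number, so a pairing by number is not established. The labels give only numbers. In the other comparisons the same number was not highest throughout. All members are named, and from each list up to 4 called genes by p-value, or the 2 most abundant where none was called; Neurog3, Zp3 and Tfap2c were named as single calls of their marker lists. Members, lists and the libraries that stand apart were chosen with earlier results of these data known. Precision of Tdrd9, Asz1 and Gtsf1 is limited by their few counts, and floors cover counting error only. Tables and promoters were handled with Python 3.11.15 (numpy 2.4.6, pandas 2.3.3) and plots drawn with matplotlib 3.10.9. Promoter sequences are RefSeq's on GRCm38.p6.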

Additional observations from a re-analysis of the deposited data

Results flagged for a closer look

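Piwil2 is listed because the effect of dTAG-13 on it differed between NSD1-dTAG EBs and wild-type mESCs in a test of the difference itself. The log2 difference was 1.29 (adjusted p = 0.0117, edgeR), made of a log2 fold change of 1.35 in NSD1-dTAG EBs and 0.048 in wild-type mESCs. The 3 dTAG-13 EB libraries were each above the 3 nontreated EB libraries, while the ranges of dTAG-13 and nontreated wild-type mESCs overlapped. The groups differ in the tag, in cell state, in medium and in treatment time, which cannot be told apart. With groups of 3, no group was large enough to search the values of a member for single outlying libraries. The libraries that stood apart were described by their share of ribosomal protein counts and read-weighted exon length.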

How the results depend on the processing

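Settings that changed a member's call are given beside its values. Members called in NSD1-dTAG against wild-type mESCs numbered 3, with 5 when the libraries that stand apart were left out, 0 with ERCC scaling and 0 to 5 with 1 library left out; the median of all genes moved to -0.099 with ERCC scaling, against 0.012. In EBs the 2 called members became 0 to 2 with 1 library left out. The interaction gave 1 member, 2 without the libraries that stand apart and 1 to 2 with 1 library left out. Over all genes, NSD1-dTAG against wild-type mESCs gave 259 calls, 528 with DESeq2, 785 with the replicate block, 3123 without the libraries that stand apart, 500 with all 15 libraries, 1 with ERCC scaling, 111 with dTAG-13 wild-type mESCs as the control and 1 to 1248 with 1 library left out. The EB comparison gave 1030, 1626 with DESeq2, 1834 with the replicate block, 3233 without the libraries that stand apart, 1931 with all 15 libraries and 182 to 1293 with 1 library left out. Wild-type dTAG-13 mESCs gave 0, and 16 without the libraries that stand apart. The replicate block changed no member's call. The causes were not tested.

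Reversed directions occurred for uncalled values near 0. For dTAG-13 wild-type mESCs these were Fkbp6 (0.00021 with no filter, 0.0031 with all 15 libraries, 0.082 with ERCC scaling, -0.068 to 0.086 with 1 library left out), Tdrd12 (0.0051 without the libraries that stand apart, 0.028 with ERCC scaling, -0.10 to 0.028 with 1 library left out), Gtsf1 (-0.065 without the libraries that stand apart, -0.15 to 0.14 with 1 library left out), Piwil2 (-0.0084 to 0.13) and Mael (-0.075 to 0.21). For NSD1-dTAG mESCs they were Pld6 (-0.0043 with no filter, -0.00083 with the replicate block, -0.084 without the libraries that stand apart, -0.14 with ERCC scaling, -0.094 to 0.079 with 1 library left out) and Gtsf1 (-0.49 to 0.17). Fkbp6 ran from -0.23 to 0.11 in EBs and from -0.24 to 0.10 in the interaction.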
